A study of Mus musculus with 8 samples.

Results

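The visual cycle genes described here are Rdh8, Rdh12, Abca4, Rpe65, Lrat, Rdh5, Rgr, Rrh, and Stra6, 9 of the 21827 genes measured. They were chosen by name, for their place in retinoid chemistry, and every one had a usable FPKM (a read level scaled for the length of the transcript and the depth of the library) in all 8 libraries. RNA sequencing was done on retinas of ICR (slc:ICR) mice, with whole retinas at E15 and E18, and with Cd73-negative (Cd73NC) and Cd73-positive (Cd73PC) fractions sorted at P2, P5, and P8. Cd73, the product of Nt5e, is a surface enzyme of rod precursors and rods. There was 1 library for each of the 8 conditions, so no difference between 2 libraries can be set against a spread between replicates. Both fractions of a stage came from the same pool of retinas, and the difference between fractions was tested over the 3 stages, with the stage as a block.

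The retinas sorted at each stage were pooled, dissociated with trypsin, stained with an anti-Cd73 antibody and with propidium iodide, and sorted with speed put before purity. Nt5e was at FPKM 2.43, 31.4, and 9.38 in Cd73NC of P2, P5, and P8, and at 97.3, 131, and 124 in Cd73PC. The summed FPKM of 7 rod markers was 50.4, 805, and 770 in Cd73NC, and 3215, 7073, and 11770 in Cd73PC, each Cd73PC library standing above the Cd73NC library of its stage. Depth relative to E18 ranged from 0.965 at E15 to 1.62 in P2 Cd73PC, and between 11152 and 12413 genes reached FPKM 1 in a library. For 8 of the 9 genes, Stra6 excepted, the FPKM values were whole multiples of 1 read, which gave the reads behind each value. Intervals below are 95% intervals from these reads (exact Poisson for a level, exact conditional binomial for a fold). Folds are ratios of FPKM with nothing added, and genes were called past 1.5-fold on FPKM + 1. The intervals cover counting error only, and reads amplified by PCR without molecular identifiers are not independent molecules.

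Vision depends on 11-cis-retinal, which light converts to all-trans-retinal inside the opsin. In the outer segment Abca4 moves the freed all-trans-retinal across the disc membrane, and the dehydrogenase Rdh8 reduces it to retinol. Rdh12, a dehydrogenase of the inner segment, also reduces all-trans-retinal to retinol. In the retinal pigment epithelium (RPE), Lrat esterifies the retinol, Rpe65 isomerises the ester to 11-cis-retinol, and Rdh5 oxidises this to 11-cis-retinal. Rgr and Rrh (peropsin) are opsins of the RPE that bind all-trans-retinal, Rgr being found in Müller glia as well, and Stra6 is the membrane receptor that takes up retinol from its carrier in the blood.

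The 9 genes lie on 5 chromosomes of NCBI37/mm9. Abca4 (chr3:121747378-121882979, plus strand, 50 exons), Rpe65 (chr3:159262145-159288271, plus strand, 14 exons), Lrat (chr3:82696504-82707896, minus strand, 2 exons), and Rrh (chr3:129511493-129525423, minus strand, 8 exons) are on chromosome 3. Rdh8 (chr9:20622948-20630607, 6 exons) and Stra6 (chr9:57976895-58001804, 19 exons and 4 start sites) are both on the plus strand of chromosome 9. Rdh12 (chr12:80309901-80323648, plus strand, 7 exons), Rdh5 (chr10:128350647-128356353, minus strand, 5 exons), and Rgr (chr14:37850676-37862150, minus strand, 7 exons) are alone on theirs. The whole of Lrat is overlapped by 4930564K09Rik on the opposite strand, which was at FPKM 0.0259 or lower in every library. The libraries do not mark strand, so the reads of these overlapping genes cannot be told apart.

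The 200 bases before the annotated start were read from NCBIM37 for the 8 genes with 1 start site, to show the sequence next to the starts of genes that were high in opposite fractions. Matches to 4 hexamers were searched on both strands. TAATCC, the core bound by Crx and Otx2, was present in 4.67% of the windows of 19016 genes. TGCTGA, part of the site bound by Nrl, was present in 11.3% of them. Of the cores bound by Mitf, CACGTG was present in 5.96% of the windows, and CATGTG was present in 7.25% of them. None of the 4 was present in the windows of Rdh8, Lrat, and Rdh5. The 5 windows that hold a match are printed 5′ to 3′ on the strand of the gene, with the match in capitals, which reads as the reverse complement of the hexamer in Abca4, Rpe65, and Rgr.
Rdh12, chr12:80309701-80309900, plus strand: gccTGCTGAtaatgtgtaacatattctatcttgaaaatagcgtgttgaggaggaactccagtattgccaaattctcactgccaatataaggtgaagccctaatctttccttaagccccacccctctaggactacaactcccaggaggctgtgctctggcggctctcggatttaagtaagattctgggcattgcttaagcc
Abca4, chr3:121747178-121747377, plus strand: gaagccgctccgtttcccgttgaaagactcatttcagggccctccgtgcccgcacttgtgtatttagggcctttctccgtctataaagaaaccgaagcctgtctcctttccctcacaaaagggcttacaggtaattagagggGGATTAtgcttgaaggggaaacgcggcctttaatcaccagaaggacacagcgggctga
Rpe65, chr3:159261945-159262144, plus strand: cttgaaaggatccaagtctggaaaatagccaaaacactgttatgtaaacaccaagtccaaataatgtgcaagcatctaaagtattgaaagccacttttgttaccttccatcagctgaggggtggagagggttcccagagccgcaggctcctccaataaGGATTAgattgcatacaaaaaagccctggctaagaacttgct
Rgr, chr14:37862151-37862350, minus strand: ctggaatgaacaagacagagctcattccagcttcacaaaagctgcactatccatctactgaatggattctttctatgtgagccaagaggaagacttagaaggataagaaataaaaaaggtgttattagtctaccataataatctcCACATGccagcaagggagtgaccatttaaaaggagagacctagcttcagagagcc
Rrh, chr3:129525424-129525623, minus strand: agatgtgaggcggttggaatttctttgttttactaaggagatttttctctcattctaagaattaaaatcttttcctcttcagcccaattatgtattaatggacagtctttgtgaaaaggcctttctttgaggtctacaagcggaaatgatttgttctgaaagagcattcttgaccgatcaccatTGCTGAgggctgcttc
The Nrl hexamer of Rdh12 lies 197 to 192 bases before the start, and that of Rrh lies 16 to 11 bases before it. The Crx and Otx2 core lies 58 to 53 bases before the start of Abca4 and 42 to 37 bases before that of Rpe65, and the Mitf core of Rgr lies 55 to 50 bases before its start. In the GENCODE annotation the nearest transcript start lies 17 bases before the one used for Abca4. For Rpe65 it lies 52 bases after the one used, so these positions depend on the annotation. Rdh12 and Rrh, which share a hexamer, were high in opposite fractions. A match describes letters only.

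**Figure D1:**
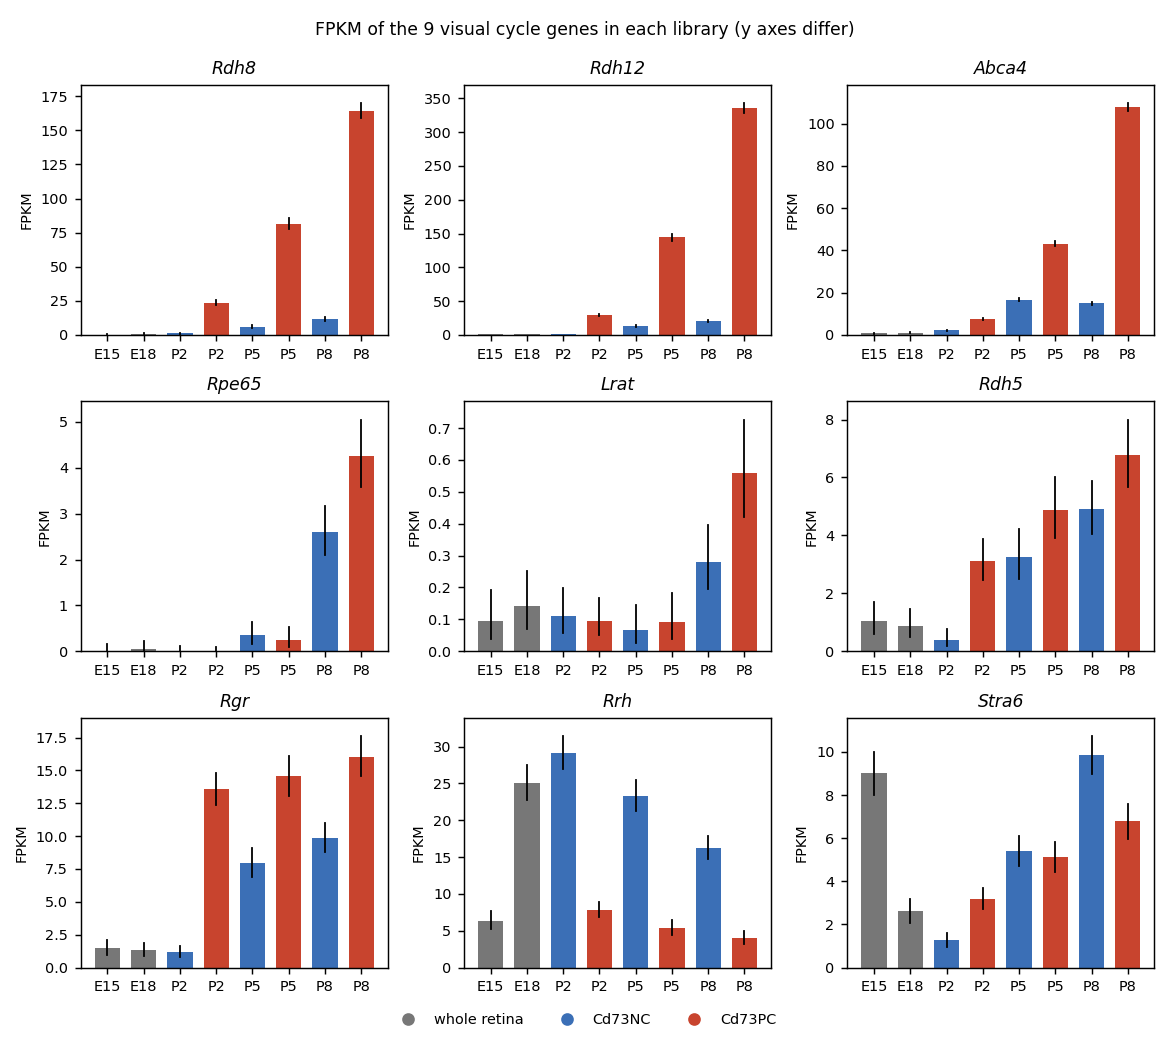
FPKM (y axis, linear, a different range in each panel) of the 9 genes in the 8 libraries (x axis), with whole retina in grey, Cd73NC in blue, and Cd73PC in red. Lines are 95% exact Poisson intervals on the reads, or for Stra6 the bounds given by Cufflinks. Rdh8, Rdh12, and Abca4 climb in Cd73PC to 165, 336, and 108 at P8, Rpe65 and Lrat are near 0 until P8, and Rrh is higher in Cd73NC at each stage.

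The photoreceptor genes Rdh8, Rdh12, and Abca4 were higher in Cd73PC than in Cd73NC of every stage, and rose in Cd73PC from stage to stage. Rdh8, the outer segment dehydrogenase for all-trans-retinal, was at FPKM 0.0550 at E15 and 0.902 at E18, 1.21, 6.10, and 11.7 in Cd73NC of P2, P5, and P8, and 23.7, 81.5, and 165 in Cd73PC. The E15 value rests on 1 read, and the P8 Cd73PC value on 3933 reads. Cd73PC exceeded Cd73NC 19.6-fold (13.5 to 29.4) at P2, 13.4-fold (11.2 to 16.1) at P5, and 14.1-fold (12.6 to 15.8) at P8. These 3 intervals overlap, while the Cd73PC level rose 3.43-fold (3.14 to 3.75) from P2 to P5 and 2.02-fold (1.91 to 2.14) from P5 to P8. In these libraries of many cells, more cells of a type and more RNA per cell cannot be told apart.

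Rdh12, the dehydrogenase of photoreceptor inner segments, followed almost the same course at a higher level. Its FPKM was 0.978 at E15 and 1.39 at E18, 1.35, 12.9, and 20.04 in Cd73NC of P2, P5, and P8, and 29.2, 144, and 336 in Cd73PC. Both embryonic libraries and P2 Cd73NC were low and did not differ beyond counting error, and P2 Cd73PC stood 20.9-fold (14.6 to 30.9) above E18. Between fractions the fold was 21.6 (15.6 to 30.7) at P2, 11.2 (9.98 to 12.5) at P5, and 16.7 (15.5 to 18.1) at P8, with no overlap of the P5 and P8 intervals. In the Cd73NC fraction Rdh12 rose too, 9.58-fold (6.83 to 13.8) from P2 to P5 and 1.55-fold (1.36 to 1.78) from P5 to P8.

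Abca4, the outer segment transporter, was less confined to Cd73PC. It was at FPKM 0.730 at E15 and 1.07 at E18, 2.14, 16.7, and 15.0 in Cd73NC of P2, P5, and P8, and 7.45, 43.1, and 108 in Cd73PC. All 3 Cd73PC values lie above the Cd73NC value of the same stage, but P5 and P8 Cd73NC lie above P2 Cd73PC. The fold between fractions was 3.49 (3.07 to 3.98) at P2, 2.59 (2.46 to 2.72) at P5, and 7.20 (6.89 to 7.52) at P8, each interval below those of Rdh8 and Rdh12 at that stage. Put as a share, the Cd73NC level of Abca4 was 28.7%, 38.7%, and 13.9% of the Cd73PC level at P2, P5, and P8. For Rdh12 the share was 4.63%, 8.95%, and 5.97%, and for the summed rod markers it was 1.57%, 11.4%, and 6.54%.

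From P5 to P8 Abca4 was lower in Cd73NC, at 0.898 times the P5 level (0.846 to 0.953), while Rdh8 and Rdh12 were higher there. Cone markers were also present in the Cd73NC libraries. The summed FPKM of 8 cone markers was 140, 496, and 274 in Cd73NC of P2, P5, and P8, and 1393, 1573, and 962 in Cd73PC, a Cd73NC share of 10.0%, 31.5%, and 28.5%. Gngt2 made up 1260, 1460, and 812 of the Cd73PC sums. Without it the sums were 59.7, 148, and 122 in Cd73NC and 133, 113, and 149 in Cd73PC, so that the Cd73NC share was 44.8%, 132%, and 81.8%, and above the Cd73PC level at P5. Of these markers Gnat2, the cone transducin subunit, was at 14.8, 35.3, and 31.6 in Cd73NC, and at 21.9, 22.3, and 22.8 in Cd73PC. Leaving out Gngt2 was chosen after its values were seen. The part of cones in the Cd73NC level of Abca4 was not tested.

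**Figure D2:**
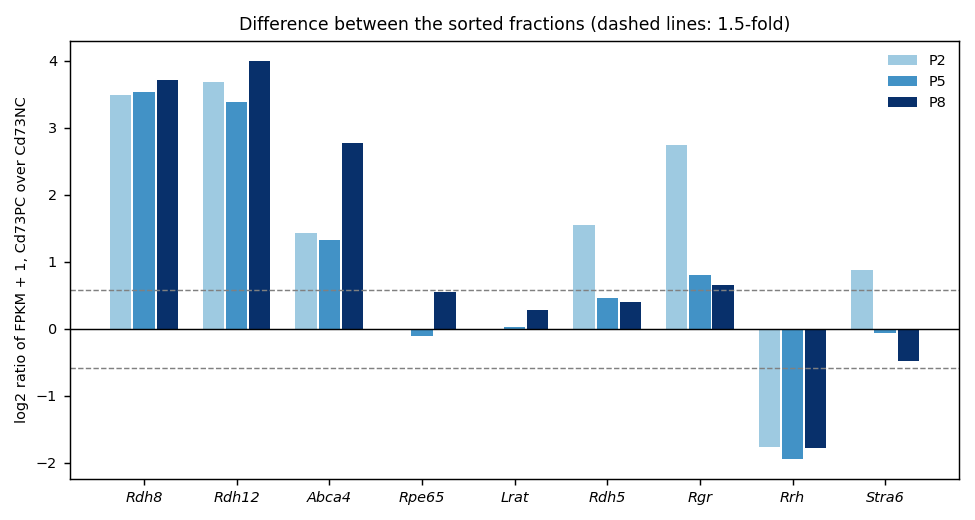
Log2 ratio of FPKM + 1 in Cd73PC over Cd73NC (y axis) for the 9 genes (x axis) at P2, P5, and P8 (light to dark bars, 1 pair of libraries each), with 1.5-fold as dashed lines. Rdh8 and Rdh12 stay between 3.38 and 4.0, Rdh5 and Rgr are tallest at P2, Rrh lies between -1.94 and -1.76, and Stra6 goes from 0.88 to -0.48.

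Rpe65 and Lrat, the isomerase and the acyltransferase at the centre of the cycle, were near 0 until P5 and were higher at P8 in both fractions. Rpe65 was at FPKM 0 at E15, 0.0404 at E18 (1 read), and 0 in both fractions at P2. At P5 it was at 0.351 in Cd73NC (10 reads) and 0.253 in Cd73PC (7 reads), and P8 brought 2.59 (97 reads) and 4.26 (134 reads). A count of 0 allows, at 3 reads, an FPKM of up to 0.125 at E15, 0.0955 in P2 Cd73NC, and 0.0749 in P2 Cd73PC, while the 2-sided Poisson intervals drawn in the plot of levels reach 0.154, 0.117, and 0.0921. From P5 to P8 it was 7.39-fold (3.85 to 15.9) higher in Cd73NC and 16.8-fold (7.95 to 42.7) higher in Cd73PC, and the 2 intervals overlap. At P8 the ratio of Cd73PC to Cd73NC was 1.64 (1.26 to 2.16) from the reads, and 1.46 after adding 1 to each FPKM.

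Lrat did not reach FPKM 1 in any library. Its FPKM was 0.0933 at E15 and 0.142 at E18, 0.112, 0.0672, and 0.281 in Cd73NC of P2, P5, and P8, and 0.0956, 0.0922, and 0.558 in Cd73PC. The 6 values up to P5 rest on 6 to 12 reads each, with intervals that all overlap, and the P8 values rest on 33 reads in Cd73NC and 55 in Cd73PC. Lrat was 4.19-fold (1.73 to 12.2) higher at P8 than at P5 in Cd73NC and 6.05-fold (2.86 to 14.7) higher in Cd73PC. At P8 its ratio of Cd73PC to Cd73NC was 1.98 (1.26 to 3.15) from the reads. On FPKM + 1 the largest difference of Lrat between fractions was a log2 ratio of 0.28 at P8. That scale understates changes of low genes.

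Rdh5 and Rgr shared a different course, with a step up between P2 Cd73NC and P2 Cd73PC and smaller differences between the fractions later. Rgr, the RPE and Müller glia opsin, was at FPKM 1.46 at E15 and 1.32 at E18, 1.18, 7.95, and 9.85 in Cd73NC of P2, P5, and P8, and 13.6, 14.5, and 16.1 in Cd73PC. The embryonic libraries and P2 Cd73NC were low, and the other 5 libraries were all at 7.95 or more. The fold between fractions was 11.5 (8.05 to 16.8) at P2, 1.83 (1.53 to 2.18) at P5, and 1.63 (1.41 to 1.88) at P8. Cd73PC was nearly level, at 1.07 times (0.932 to 1.23) the P2 value at P5, while Cd73NC rose 6.72-fold (4.63 to 10.0).

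Rdh5, the 11-cis-retinol dehydrogenase, was at FPKM 1.04 at E15 and 0.876 at E18, 0.395, 3.27, and 4.90 in Cd73NC of P2, P5, and P8, and 3.10, 4.88, and 6.76 in Cd73PC. P2 Cd73NC was again the lowest of the 8, with 8 reads against 80 in P2 Cd73PC. The fold between fractions was 7.84 (3.79 to 18.8) at P2, 1.49 (1.06 to 2.11) at P5, and 1.38 (1.07 to 1.78) at P8. In Cd73NC the level rose 8.27-fold (3.94 to 20.03) from P2 to P5. Bloc1s1, which lies 616 bases away on the same strand, was at 70.4 to 117, far above Rdh5. Cd63, which lies 772 bases away on the opposite strand, was at 40.4 to 109. It was at 63.8, 74.3, and 67.4 in Cd73NC of P2, P5, and P8, and at 109, 59.9, and 41.8 in Cd73PC.

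The summed markers of RPE and pigment cells moved with Rgr and Rdh5. The summed FPKM of 14 such markers was 13.2 at E15 and 9.87 at E18, 8.45, 59.3, and 54.7 in Cd73NC of P2, P5, and P8, and 94.1, 85.1, and 111 in Cd73PC. Past 1.5-fold, 10 of the 14 were higher in Cd73PC at P2, with 3 at P5 and 5 at P8, and 0 were lower. With quantile normalization the counts at P5 and P8 were 6 and 11, and again 0 were lower. Pmel, which forms the fibrils of the melanosome, was at 0.325 in Cd73NC and 37.4 in Cd73PC at P2, and Dct, a melanin enzyme, at 1.04 and 16.0. Between 0 and 3 of the 14 were at 0 in a library. Best1, an RPE chloride channel (chosen here after its values were seen), was at 0.445 or lower in every library and went the other way. It was at 0.445, 0.0307, and 0.163 in Cd73NC of P2, P5, and P8, and at 0.109, 0, and 0.0278 in Cd73PC. Adding 1 to each FPKM keeps such low values within 1.5-fold. The 3 microglia markers were past 1.5-fold higher in Cd73PC at P2 as well, with a summed FPKM of 1.86 in Cd73NC and 10.2 in Cd73PC, while at P5 and P8 their sum was higher in Cd73NC, at 15.7 against 9.06 and at 38.8 against 29.8.

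The ratio of Rgr to the RPE and pigment marker sum varied less than the sum itself. Krt18 alone made up 4.71 of the sum of 8.45 in P2 Cd73NC, and 14.4 of 94.1 in P2 Cd73PC. The ratio without Krt18 was not computed. Rgr came to 11.0% of the summed marker FPKM at E15, 13.3% at E18, 14.0%, 13.4%, and 18.0% in Cd73NC of P2, P5, and P8, and 14.4%, 17.1%, and 14.5% in Cd73PC. The share thus varied 1.63-fold over libraries in which the sum itself varied 13.1-fold, where the share of Rdh5 varied 2.72-fold, that of Stra6 20.1-fold, and that of Rdh12 40.9-fold. Rpe65 was at 0 in P2 Cd73PC, where the marker sum was 94.1, and rose 16.8-fold in Cd73PC from P5 to P8, where the sum rose 1.30-fold. Ttr, which the RPE makes and which binds the retinol carrier of the blood, was at 0.205, 11.9, and 25.9 in Cd73NC and at 7.76, 16.0, and 44.4 in Cd73PC (chosen after its values were seen). The part of RPE or pigment cells in the levels of these genes was not tested, and the shares were computed after the data had been seen.

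**Figure D3:**
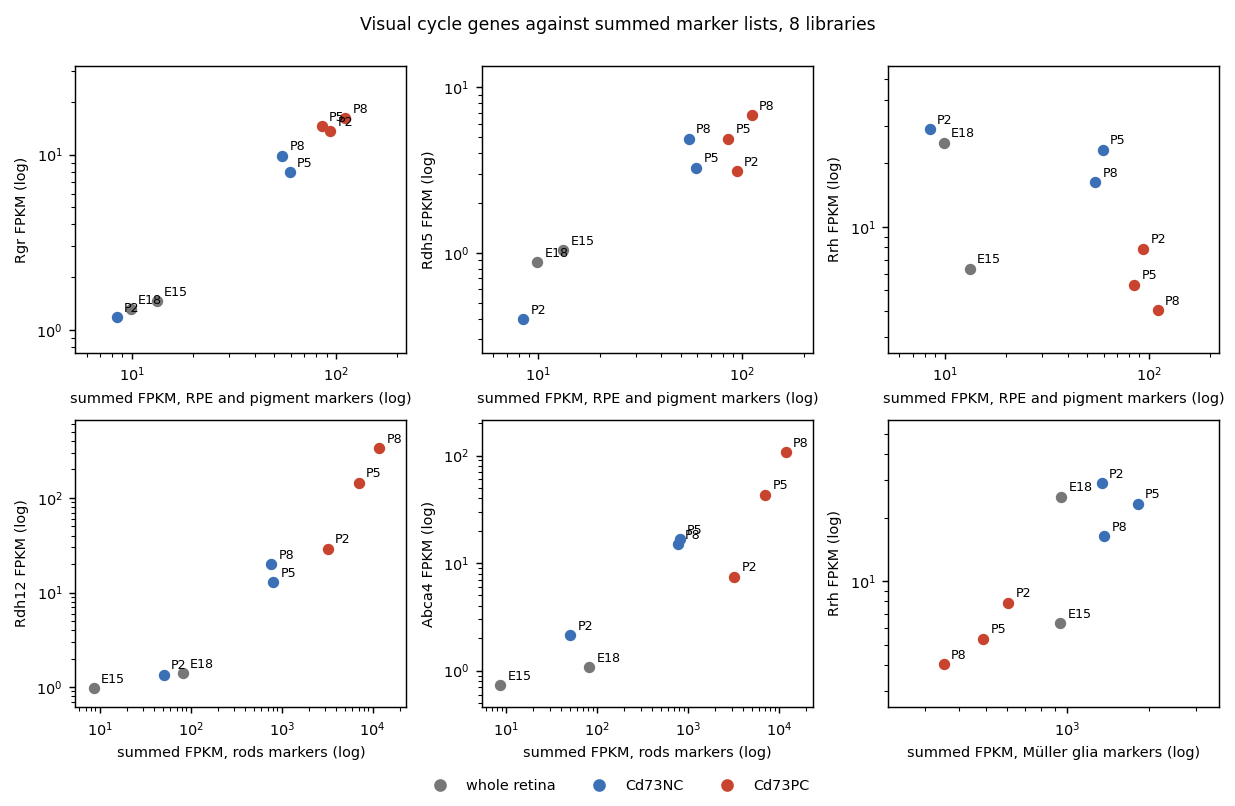
FPKM of a gene (y axis, log) against the summed FPKM of a marker list (x axis, log) in the 8 libraries, with whole retina in grey, Cd73NC in blue, Cd73PC in red, and the stage beside each point. Rgr keeps to 11.0% to 18.0% of the RPE and pigment marker sum, Rrh is lowest where that sum is highest, and the P5 and P8 Cd73NC points of Abca4 lie above its P2 Cd73PC point.

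Rrh (peropsin) was the only 1 of the 9 that was lower in Cd73PC at every stage. It was at FPKM 6.33 at E15 and 25.1 at E18, 29.1, 23.3, and 16.3 in Cd73NC of P2, P5, and P8, and 7.88, 5.33, and 4.03 in Cd73PC. The 3 Cd73NC values and E18 were all at 16.3 or more, and the 3 Cd73PC values and E15 were all at 7.88 or less. Cd73NC exceeded Cd73PC 3.70-fold (3.18 to 4.32) at P2, 4.37-fold (3.53 to 5.44) at P5, and 4.04-fold (3.22 to 5.12) at P8, and the 3 intervals overlap. Rrh had risen 3.96-fold (3.21 to 4.92) from E15 to E18, and in Cd73NC it fell to 0.799 times (0.709 to 0.900) the P2 level at P5 and to 0.70 times (0.614 to 0.798) the P5 level at P8.

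As a list, the RPE and pigment markers did not share this direction. On FPKM + 1, 0 of the 14 were past 1.5-fold lower in Cd73PC, although Best1 was lower there at low FPKM. Markers of Müller glia shared the direction of Rrh, with 6, 7, and 8 of 8 lower in Cd73PC at P2, P5, and P8. Their summed FPKM was 942 at E15 and 951 at E18, 1343, 1823, and 1369 in Cd73NC of P2, P5, and P8, and 606, 489, and 350 in Cd73PC. Rrh came to 0.672% of that sum at E15, 2.63% at E18, 2.17% in P2 Cd73NC, and 1.09% to 1.30% in the other 5 libraries. The 8 markers include Rlbp1 and Vim, which retinal progenitors also express. At E15 Dkk3 was at 358, Vim at 286, and Slc1a3 at 52.1, with Rlbp1 at 2.65. The paper describes retinas of E15 and E18 as mostly progenitors and early-born cell types, so the sum is not particular to Müller glia. Apoe, 1 of the 8, went the other way at P2, at 110 in Cd73NC and 162 in Cd73PC. These 8 were not the only markers higher in Cd73NC. All 5 markers of dividing progenitors were lower in Cd73PC at each stage, their sum being 3.75-, 3.86-, and 5.11-fold higher in Cd73NC, but it fell in Cd73NC from 435 to 15.1 between P2 and P8. Of 4 endothelial markers 2, 1, and 1 were lower, but 1 other went the opposite way at P5, where their median log2 ratio was 0.18. Their sum was 4.82-, 4.41-, and 5.71-fold higher in Cd73NC. Kdr alone made up 139, 143, and 67.5 of the Cd73NC sums of 169, 154, and 72.4, so these folds rest mostly on 1 gene. The sum of 5 bipolar cell markers was 2.53- and 8.21-fold higher in Cd73NC at P5 and P8, and 2.44-fold lower there at P2. Of 5 amacrine cell markers 4, 3, and 1 were lower in Cd73PC at P2, P5, and P8, and 1 was higher at each stage. Their median log2 ratio was -1.72, -1.07, and -0.10, and their sum was 1.82-fold higher in Cd73NC at P2 but lower there at P5 and P8. Of 5 retinal ganglion cell markers 2, 0, and 1 were lower in Cd73PC, and 0 were higher. The part of these cells in the level of Rrh was not tested.

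Stra6, the retinol receptor, had neither course. It was at FPKM 9.01 at E15 and 2.63 at E18, 1.28, 5.40, and 9.85 in Cd73NC of P2, P5, and P8, and 3.19, 5.12, and 6.78 in Cd73PC. It was high at E15 and in P8 Cd73NC and lowest in P2 Cd73NC. The bounds given by Cufflinks were 0.955 to 1.61 and 2.72 to 3.67 at P2, which do not overlap, 4.70 to 6.11 and 4.41 to 5.83 at P5, which do, and 8.96 to 10.7 and 5.98 to 7.59 at P8, which do not. On FPKM + 1 the log2 ratio of Cd73PC over Cd73NC went from 0.88 (P2) through -0.07 (P5) to -0.48 (P8), and the P2 ratio alone was past 1.5-fold.

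Counted together, 6 of the 9 genes were past 1.5-fold higher in Cd73PC at P2, where 8.56% of all genes were, and 1, Rrh, was lower, where 14.4% were. At P5 the counts were 4 higher and 1 lower (7.02% and 15.5% of all genes), and at P8 they were 4 higher and 1 lower (7.54% and 18.6%). The 4 at P5 and at P8 were Rdh8, Rdh12, Abca4, and Rgr. With quantile normalization 7 were higher at P8, the others being Rpe65, Lrat, and Rdh5. The median log2 ratio of the 9 at these stages was 1.43, 0.46, and 0.55, beside 0, 0, and -0.02 for all genes. For genes that reached FPKM 1 in either library, a filter not put on the 9, it was -0.14, -0.18, and -0.23. These 3 comparisons use different libraries, whereas those between stages reuse them.

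Over the 3 stages together, 4 of the 9 genes differed between fractions. The 6 sorted libraries were fitted with limma on log2(FPKM + 1), with the stage as a block, for 12130 genes with a mean FPKM of at least 1, and a gene was called at a Benjamini-Hochberg adjusted p under 0.05. Of all genes tested, 9.37% were called higher and 20.0% lower in Cd73PC, and 43.85% were at an unadjusted limma p under 0.05. The fit left 2 residual degrees of freedom, and its SE and p-values borrow variance across genes. The smallest 2-sided exact p that 3 pairs allow is 0.25. Rdh8 was higher by 3.58 ± 0.13 on the log2 scale (SE, 3 pairs, limma adjusted p = 0.0031), and Rdh12 by 3.69 ± 0.16 (limma adjusted p = 0.0031). Abca4 was higher by 1.84 ± 0.31 (limma adjusted p = 0.013), and was not called without the P5 pair, where 272 of all genes were called against 3561. Rrh had a log2 ratio of -1.83 ± 0.13 (limma adjusted p = 0.0031). Each of the 4 had the same direction at all 3 stages, and without the block Rrh alone was called. With no filter on mean FPKM limma called 0 of the 9 and 0 of all genes, 4 of the 9 being at an unadjusted p under 0.05.

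Rgr and Rdh5, both higher in Cd73PC in 3 of 3 stages, missed the threshold. The log2 ratio over the stages was 1.39 ± 0.43 for Rgr (limma adjusted p = 0.065) and 0.80 ± 0.28 for Rdh5 (limma adjusted p = 0.087), and both were called with quantile normalization. Rpe65 was at 0.15, with a 95% interval of -0.50 to 0.79, and Stra6 at 0.11, with one of -0.62 to 0.84, so that differences of up to those sizes are not excluded. Lrat was below the mean FPKM required. The stages are not repeats of 1 condition, and the spread in this fit includes any change of the difference with age.

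Between stages, Rdh8 and Rrh were higher and Stra6 lower at E18 than at E15, where 4.61% of all genes were higher and 2.09% lower. The call of Rdh8 rests on 17 reads against 1, a 16.4-fold difference (2.57 to 686). Both values are under FPKM 1, and the call drops out where FPKM 1 in either library is required. In P2 Cd73PC against E18, 5 of the 9 were higher (8.78% of all genes) and Rrh was lower (18.3%), and in P2 Cd73NC against E18 Abca4 was higher (3.20%) and Stra6 lower (8.20%). In Cd73PC, 3 were higher at P5 than at P2 (3.36%) and 4 at P8 than at P5 (3.31%), the fourth being Rpe65. In Cd73NC, 6 were higher at P5 than at P2 (7.93%) and 4 at P8 than at P5 (8.47%). None of the 9 was lower from 1 sorted stage to the next within a fraction, by 1.5-fold on FPKM + 1, where 8.57% and 4.78% of all genes were in Cd73PC and 9.51% and 7.78% in Cd73NC.

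The order of the 9 genes by FPKM changed with age. At E15 Stra6 led, followed by Rrh, and at E18 and in P2 Cd73NC Rrh led, by 29.1 to 2.14 for Abca4 in the latter. Rdh12 led in P2 Cd73PC, followed by Rdh8, Rgr, Rrh, and Abca4, and the bounds of the last 2 overlap. At P8 the Cd73PC order was Rdh12, Rdh8, Abca4, Rgr, Stra6, Rdh5, Rpe65, Rrh, and Lrat, with overlapping bounds for Stra6 and Rdh5 and for Rpe65 and Rrh. In P8 Cd73NC Rdh12 again led at 20.04, and the bounds of Rrh and Abca4, of Rdh8 and Rgr, and of Rgr and Stra6 overlap.

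Of 21 other genes of the visual cycle and retinoid transport, 4, 5, and 7 were past 1.5-fold higher in Cd73PC at the stages P2, P5, and P8, and 4, 5, and 3 were lower, with medians of 0.03, 0, and 0. Rbp3, the retinoid carrier between photoreceptors and the RPE, was at FPKM 10.6 at E15 and 73.7 at E18, 57.2, 399, and 197 in Cd73NC of P2, P5, and P8, and 929, 1265, and 1793 in Cd73PC. Dhrs3, a reductase of all-trans-retinal, was at 1.38 and 1.44 in the embryo, 2.11, 4.57, and 8.26 in Cd73NC, and 4.08, 28.2, and 65.2 in Cd73PC. It was the dehydrogenase or reductase of this list with the largest difference between fractions at P8, with a log2 ratio of 2.84.

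Rlbp1, the 11-cis-retinoid carrier of RPE and Müller glia, was at FPKM 2.65 at E15 and 25.9 at E18, 83.1, 264, and 193 in Cd73NC of P2, P5, and P8, and 39.2, 68.8, and 39.1 in Cd73PC. It was higher in Cd73NC of each stage, and its log2 ratio of Cd73PC over Cd73NC was -2.28 at P8. Scarb1, a receptor for lipoproteins, was within 1.5-fold at P2 and higher in Cd73PC at P5 and P8, at 59.1 and 112 and at 59.0 and 128.

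Genes for retinoic acid, the other product made from retinal, were higher in Cd73NC or within 1.5-fold. Of 8 genes for its synthesis, binding, and breakdown, 6 were lower in Cd73PC at P2, falling to 4 at P5 and 2 at P8, and 0 were higher. Aldh1a1, which makes retinoic acid from retinal, was at FPKM 47.5 at E15 and 41.0 at E18, 45.6, 31.0, and 26.6 in Cd73NC of P2, P5, and P8, and 13.2, 9.30, and 4.24 in Cd73PC. Cyp26a1, which degrades retinoic acid, was at 14.0 and 19.8 in the embryo, 26.5, 5.73, and 2.56 in Cd73NC, and 2.99, 0.751, and 0.198 in Cd73PC. Aldh1a3, Crabp1, and Crabp2 were past the threshold at P2 and at FPKM 2.53 or lower in both fractions at P8.

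**Figure D4:**
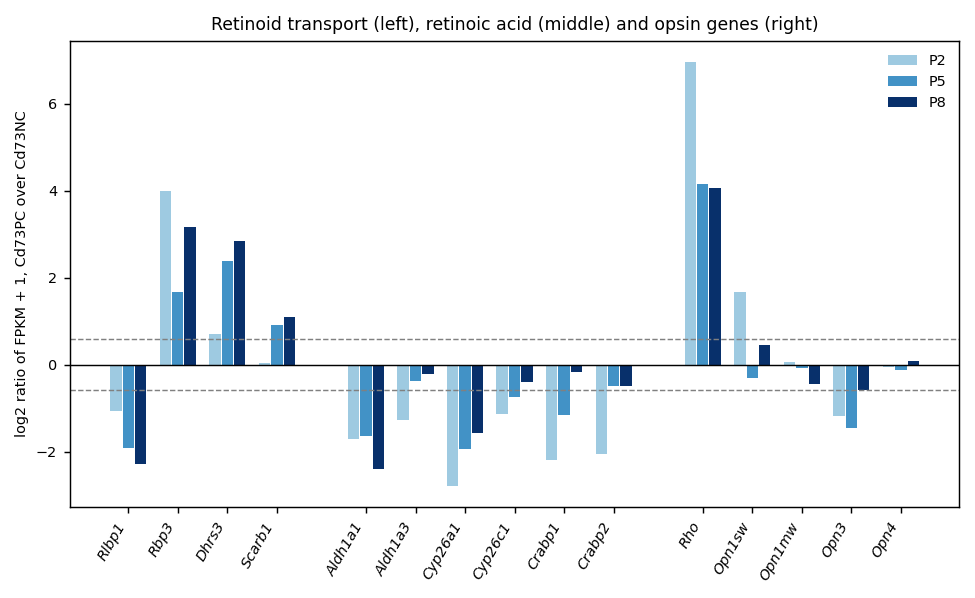
Log2 ratio of FPKM + 1 in Cd73PC over Cd73NC (y axis) at P2, P5, and P8 (light to dark bars) for the named genes of retinoid transport, retinoic acid, and the opsins (x axis), with 1.5-fold as dashed lines. Rlbp1 lies below 0 and Rbp3 and Dhrs3 lie above it at each stage, and the retinoic acid genes all lie below 0.

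Of 6 opsins, 2, 1, and 1 were higher in Cd73PC at the 3 stages, and 1, 1, and 0 were lower. Opn1sw, the short-wavelength cone opsin, was at FPKM 0.497 at E15 and 39.8 at E18, 26.2, 99.4, and 55.2 in Cd73NC of P2, P5, and P8, and 86.2, 79.6, and 76.5 in Cd73PC. Opn1mw, the middle-wavelength cone opsin, was at 0.135 or lower in the 6 libraries up to P5 and at 4.10 in Cd73NC and 2.72 in Cd73PC at P8. Opn3 was higher in Cd73NC at P2 and P5, and Opn4, the pigment of light-sensitive ganglion cells, was at 4.61 at E18 and at 0.0840 or lower in the sorted fractions.

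The genes most like each of the 9 were found by the root mean square difference of log2(FPKM + 1), centred on its mean, over the 8 libraries, among 8284 genes that reached FPKM 1 and varied by at least 1 on that scale. Reep6 was nearest to Rdh12, at 0.17, followed by Impg1, Rdh8, and Gucy2e, and Gucy2e was nearest to Rdh8, at 0.29, followed by Impg1, Reep6, and Rdh12. Gucy2e encodes a guanylate cyclase of photoreceptors. Abca4 was nearest to Grk1, the rhodopsin kinase, at 0.39, and its 4 nearest also held Rtbdn and Cplx4 and neither dehydrogenase.

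The other genes had other neighbours. Dct was nearest to Rgr, at 0.21, followed by Col8a1, Mef2d, and Grina, and Ypel2 was nearest to Rdh5, at 0.20, followed by Pclo, Trak1, and Mamld1. Slc16a14 was nearest to Rrh, at 0.24, followed by Gpr124, Cd44, and Slc30a10. The neighbours of Rpe65 were Fam169a, at 0.28, Opn1mw, Sepp1, and Tnfaip3, each highest at P8, and those of Stra6 were Unc13b, at 0.22, Srrm3, Sesn2, and Aif1. Lrat was left out because it stayed under FPKM 1. The 8 libraries share no replicate, and likeness over so few libraries is a description.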

How the data were processed

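The authors sequenced poly(A) RNA as short single reads, aligned them to NCBI37/mm9 with TopHat, and deposited, per library, the Cufflinks FPKM of 23021 rows with confidence bounds and a status. The submitters' processing notes name TopHat2 2.0.8b, Cufflinks 2.1.1, CASAVA 1.8.2, and bcl2fastq 1.8.4. Of the 72 FPKM values of the 9 genes, all had the status OK and 9, each at FPKM 16.3 or more, lay above their own upper bound.

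From these files, 797 small RNA rows were dropped, and where 1 symbol had several rows (234 symbols) their FPKM were added, giving 21827 genes. Rows with a failed estimate, 4 to 10 per library, were taken as missing. Ratios were taken on FPKM + 1 (pseudocount 1), with the 1.5-fold threshold of the study, and with 1 library per condition 2 libraries were compared without a test. The fractions, sorted from the same retinas, were also compared over the 6 sorted libraries with limma 3.58.1 (R 4.3.3, trend, stage as a block) on log2(FPKM + 1), for genes with a mean FPKM of at least 1, an addition made after the data had been seen. Relative depth came from the spacing of low FPKM values. Reads were recovered where each FPKM times relative depth was a whole multiple of 1 value in all libraries, within 0.02 of a whole number or a rounding allowance that grows with the reads. This held for 6983 of 15292 genes with 1 start site (45.7%), and for 8 of the 9, whose largest distance was 0.0215. Absolute depth per library was not given in the sources used here.

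The 9 genes, the gene lists, and the marker lists were chosen with earlier results of these data known. Named genes are the 9, the 4 of each list with the largest log2 ratio at P8 or the highest FPKM, and the 4 with the nearest pattern. Exceptions are marked in the text. Of the genes this rule names, 2 are not reported here. Alternatives were pseudocounts of 0.1 and 0, an FPKM of at least 1 in either library, upper-quartile scaling, quantile normalization, a 2-fold threshold, bounds apart, and all rows kept. The work used numpy 2.4.6, scipy 1.17.1, pandas 2.3.3, and matplotlib 3.10.9 under Python 3.11.15, with code tested on simulated data.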

Additional observations from a re-analysis of the deposited data

Results flagged for a closer look

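Stra6 differed in direction between stages. Its log2 ratio of FPKM + 1 in Cd73PC over Cd73NC was 0.88 at P2 and -0.48 at P8, and the bounds of the fractions did not overlap at either stage. With 1 library per fraction and stage, the difference between the stages was not tested. Quantile normalization brought the P8 ratio to -0.16 and the P2 ratio to 1.01. No condition had 4 or more libraries, so outlying samples could not be looked for.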

How the results depend on the processing

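Of 80 recounts of the 9 genes past the threshold, 71 stayed within 1.5 times the count reported and 9 did not. For Cd73PC against Cd73NC at P8 the count of 5 became 8 with quantile normalization. For P2 Cd73NC against E18 the count of 2 became 1 with upper-quartile scaling, 1 with quantile normalization, and 0 at 2-fold. For Cd73PC at P5 against P2 the count of 3 became 6 with a pseudocount of 0.1, and 5 with a pseudocount of 0, with upper-quartile scaling, and with quantile normalization. For Cd73NC at P8 against P5 the count of 4 became 1 at 2-fold, Rpe65. Of 425 recomputed log2 ratios, 40 moved by more than 1.5-fold, all under a pseudocount of 0.1 or 0, and none that was past the threshold changed sign. Quantile normalization shifted the median log2 ratio of genes with FPKM of at least 1, Cd73PC over Cd73NC at P8, from -0.23 to 0.03, and took Rpe65 from 0.55 to 0.97, Lrat from 0.28 to 0.69, and Rdh5 from 0.40 to 0.71, past the threshold. Stra6 at P5 went from -0.07 to 0.04 with upper-quartile scaling and to 0.25 with quantile normalization, within the threshold. The lists were rescaled too, a choice made after seeing the data. The medians of the retinoic acid, rod, and Müller glia lists kept their direction at all 3 stages. With upper-quartile scaling 1 Müller glia marker was called higher in Cd73PC at P2. Other lists changed sign with quantile normalization. The median went from -0.22 to 0.05 for cones at P5, from -0.10 to 0.06 for amacrine cells at P8, and from -0.37 to 0.08 for endothelial cells at P8. The rule for a value without a test was a move of 1.5-fold, since no replicate spread exists. The test over the 3 stages was added after seeing the data. It called 4 of the 9 with the stage as a replicate block, the pairing being that of the retinas sorted, and 1, Rrh, with no replicate block. Leaving out 1 stage pair gave 3 to 5. With no filter on mean FPKM limma called 0 of the 9 and 0 of all 21811 genes, with 4 of the 9 and 5571 of all genes at an unadjusted p under 0.05, and the cause was not tested. No condition had a second library that could be left out. Values of Rpe65 and Lrat before P8 rest on 12 reads or fewer, and no difference between the fractions of a stage was detectable for them at this depth.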
